A study of Mus musculus with 18 samples.

Results

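The TGF-beta pathway genes were 10 genes chosen by name for their place in the pathway: the ligands Tgfb1 and Tgfb3, the latency partner Nrros, the receptors Tgfbr1 and Tgfbr2, the receptor-activated Smads Smad2 and Smad3, the inhibitors Smad7 and Ski, and the induced extracellular protein Tgfbi. All 10 were found among the 53465 genes of the count table, and all 10 passed the filter on low counts in every comparison. RNA came from microglia (CD45low CD11b+ F4/80+) and macrophages (CD45high CD11b+ F4/80+) sorted from the contused spinal cord of 9 female C57BL/6J mice of 8 to 10 weeks. At 48 h after spinal cord injury (SCI), 1 microlitre of vehicle (PBS), 100 ng of recombinant IL-13 (rIL-13) or 100 ng of recombinant IL-4 (rIL-4) was injected into the cord, and cells were sorted 24 h later. Each group held 3 mice (PBS mice 1, 2 and 3, rIL-13 mice 5, 6 and 7, rIL-4 mice 8, 9 and 10), each mouse gave both cell types, and every mouse was injured, so uninjured tissue gives no reference level here. The macrophage gate takes blood-derived and resident CD45high cells together, and a microglial cell that raises CD45 enters it.

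TGF-beta is made as a latent dimer that stays bound to its propeptide. Nrros (also called LRRC33) tethers that latent complex on microglia and other myeloid cells, and integrins free the ligand. Active ligand brings TGFBR2 together with TGFBR1, which phosphorylates SMAD2 and SMAD3. These enter the nucleus with SMAD4, while SMAD7 blocks the receptor and SKI represses the Smad complex. In the central nervous system the pathway is best known for keeping microglia in their homeostatic state, and IL-4 and IL-13 are known to act through the transcription factor STAT6.

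In GRCm38 coordinates (GENCODE M21), Tgfb1 lies at chr7:25687002-25705077 on the plus strand and Tgfb3 at chr12:86056745-86079041 on the minus strand. Nrros lies at chr16:32142785-32165594 (minus). The receptor genes are at chr4:47353222-47414931 (Tgfbr1, plus) and chr9:116084293-116175360 (Tgfbr2, minus). Smad3 is at chr9:63646767-63757994 (minus). Ski is at chr4:155154075-155222592 (minus) and Tgfbi at chr13:56609523-56639562 (plus). Across the strand from Tgfb3 lie Ttll5, which shares 0 exon bases with it, Gm37804, which shares 163 and had 0 counts in every library, and Gm48008, which shares 257 and was not analysed here. The libraries did not mark strand, so reads from shared bases cannot be assigned to a strand.

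RefSeq promoter entries (GRCm38.p6) matched 7 of the 10 members. The 250 bases upstream of the start are printed for Smad3, which fell in macrophages of both cytokine groups, for Nrros, which differed between the cell types in every group, and for Tgfbr2, the receptor whose macrophage levels in each cytokine group did not overlap PBS. Each is written 5′ to 3′ on the strand of its gene, at chr9:63757995-63758244, chr16:32165595-32165844 and chr9:116175364-116175613. Capitals mark matches on either strand to CAGAC (a Smad-binding element), GAGGAA (PU.1 core) or the STAT6 motif, TTC and GAA with any 4 bases between them.
Smad3: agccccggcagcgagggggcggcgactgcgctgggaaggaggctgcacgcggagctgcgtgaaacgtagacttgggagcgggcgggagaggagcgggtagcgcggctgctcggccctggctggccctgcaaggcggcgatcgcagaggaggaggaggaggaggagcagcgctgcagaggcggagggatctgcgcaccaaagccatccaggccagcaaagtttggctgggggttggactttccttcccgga
Nrros: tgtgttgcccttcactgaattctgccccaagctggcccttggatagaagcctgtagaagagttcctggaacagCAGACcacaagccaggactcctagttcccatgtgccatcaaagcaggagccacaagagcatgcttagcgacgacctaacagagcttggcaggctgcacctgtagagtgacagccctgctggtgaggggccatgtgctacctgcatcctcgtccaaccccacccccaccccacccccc
Tgfbr2: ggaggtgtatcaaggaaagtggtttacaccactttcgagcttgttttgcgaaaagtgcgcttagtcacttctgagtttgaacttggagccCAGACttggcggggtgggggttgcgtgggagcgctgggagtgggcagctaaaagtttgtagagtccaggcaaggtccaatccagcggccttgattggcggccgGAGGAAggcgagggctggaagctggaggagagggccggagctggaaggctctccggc
Smad3 held no match, Nrros held 1 CAGAC, and Tgfbr2 held 1 CAGAC and 1 GAGGAA. Of the other entries, Tgfbi held 2 matches to CAGAC, the second Tgfbr1 entry held 1 to CAGAC and 1 to GAGGAA, and none of the 8 entries held the STAT6 motif. Among 32851 promoters of the same length, 42.2% held CAGAC, 23.3% held GAGGAA and 5.85% held the STAT6 motif. The GAGGAA and STAT6 searches can share bases, and these matches are a description of the letters in the window.

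The table held expected counts per gene, 35961305 to 45849829 in total per library. By the median over the 18 libraries Tgfb1 and Smad7 had the fewest counts of the members, while the lowest in a single group was Tgfb3 in PBS macrophages (42, 41 and 17 counts), and PCR copies could not be told from separate molecules. Levels are given below as normalized counts (counts divided by DESeq2 size factors of the 18 libraries). Folds, standard errors and adjusted p come from edgeR's quasi-likelihood test over all genes of the comparison, and a gene is called at an adjusted p under 0.05. Markers of the gates separated as labelled: the summed level of 10 microglia markers was 9459 to 15542 CPM (counts scaled to the library total) in PBS microglia and 2674 to 4218 CPM in PBS macrophages. Those 10 markers summed to 3690 to 5523 CPM in rIL-4 microglia and 440.4 to 846.1 CPM in rIL-4 macrophages, below every PBS library of the same cell type. The summed level of the monocyte and macrophage list (10 genes) went the other way, from 4626 to 6272 CPM in PBS microglia to 9583 to 14148 with rIL-13 and 17940 to 28278 with rIL-4, and from 24622 to 26720 in PBS macrophages to 60289 to 89410 and 98003 to 114360. Most of the level with rIL-4 was Chil3, a gene known to be induced by IL-4 and IL-13 (medians of 89.3, 5611 and 19995 CPM in microglia), and 2 of the 10 genes were called higher and 0 lower for rIL-4 in microglia. Of the monocyte genes in microglia, Ccr2 had medians of 12.4, 28 and 36.9 CPM and F13a1 294.5, 109.9 and 91.5 CPM. In rIL-4 macrophages 2 of the 10 were called higher and 1 lower, with a median log2 change of -0.39. Chil3 and Fn1 had higher medians than in PBS there (81334 against 2708 CPM and 5577 against 1067 CPM), while Lyz2 (10905 against 19013 CPM), F13a1 (242.9 against 1232 CPM) and Ly6c2 (64.9 against 129.8 CPM) had lower ones. Markers of fibroblasts and pericytes were present in the microglia gate and near 0 in the macrophage gate (0.262 to 8.27 CPM over all 9 libraries). Mice 6 (rIL-13) and 9 (rIL-4) stood apart at several members: within their group they had the lowest Tgfb1, Tgfbr1, Tgfbr2 and Ski and the highest Tgfb3 in both cell types. This was seen in the levels themselves, and counts are also given without both mice where that changes them. Both mice were picked by the levels of these members, so fits without them are descriptions and no independent support.

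Per length of exon, the members spanned a wide range of levels. In PBS microglia the means, in CPM per kilobase, were 159.6 for Tgfbi, 46.1 for Tgfbr2, 26 for Nrros, 14.7 for Tgfbr1, 11.5 for Ski, 9.81 for Smad3, 5.98 for Tgfb3, 4.12 for Smad2, 0.8 for Smad7 and 0.481 for Tgfb1. Tgfbr1 (8.19 to 19.3) overlapped Ski (10.6 to 12.6) and Smad3 (8.95 to 10.5), and Tgfb3 (3.52 to 7.75) overlapped Smad2 (3.72 to 4.4), so their order was not separated by the 3 mice. In PBS macrophages Tgfbi was again first at 725.6, followed by Nrros at 79.2, Tgfbr2 at 30.3, Tgfbr1 at 20.8, Ski at 12.5, Smad3 at 4.64, Smad2 at 4.33, Tgfb1 at 0.941, Smad7 at 0.795 and Tgfb3 at 0.267. There, Tgfbr1 overlapped both of its neighbours, Smad3 overlapped Smad2 and Tgfb1 overlapped Smad7. Tgfb1 is known to be well expressed in myeloid cells, and whether its low counts here reflect the amount of its RNA was not tested, so its place in these orders and its differences below carry that limit. Tgfb3 was the lowest member in PBS macrophages, with no mouse above 0.336, and the seventh of the 10 in PBS microglia.

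**Figure D1:**
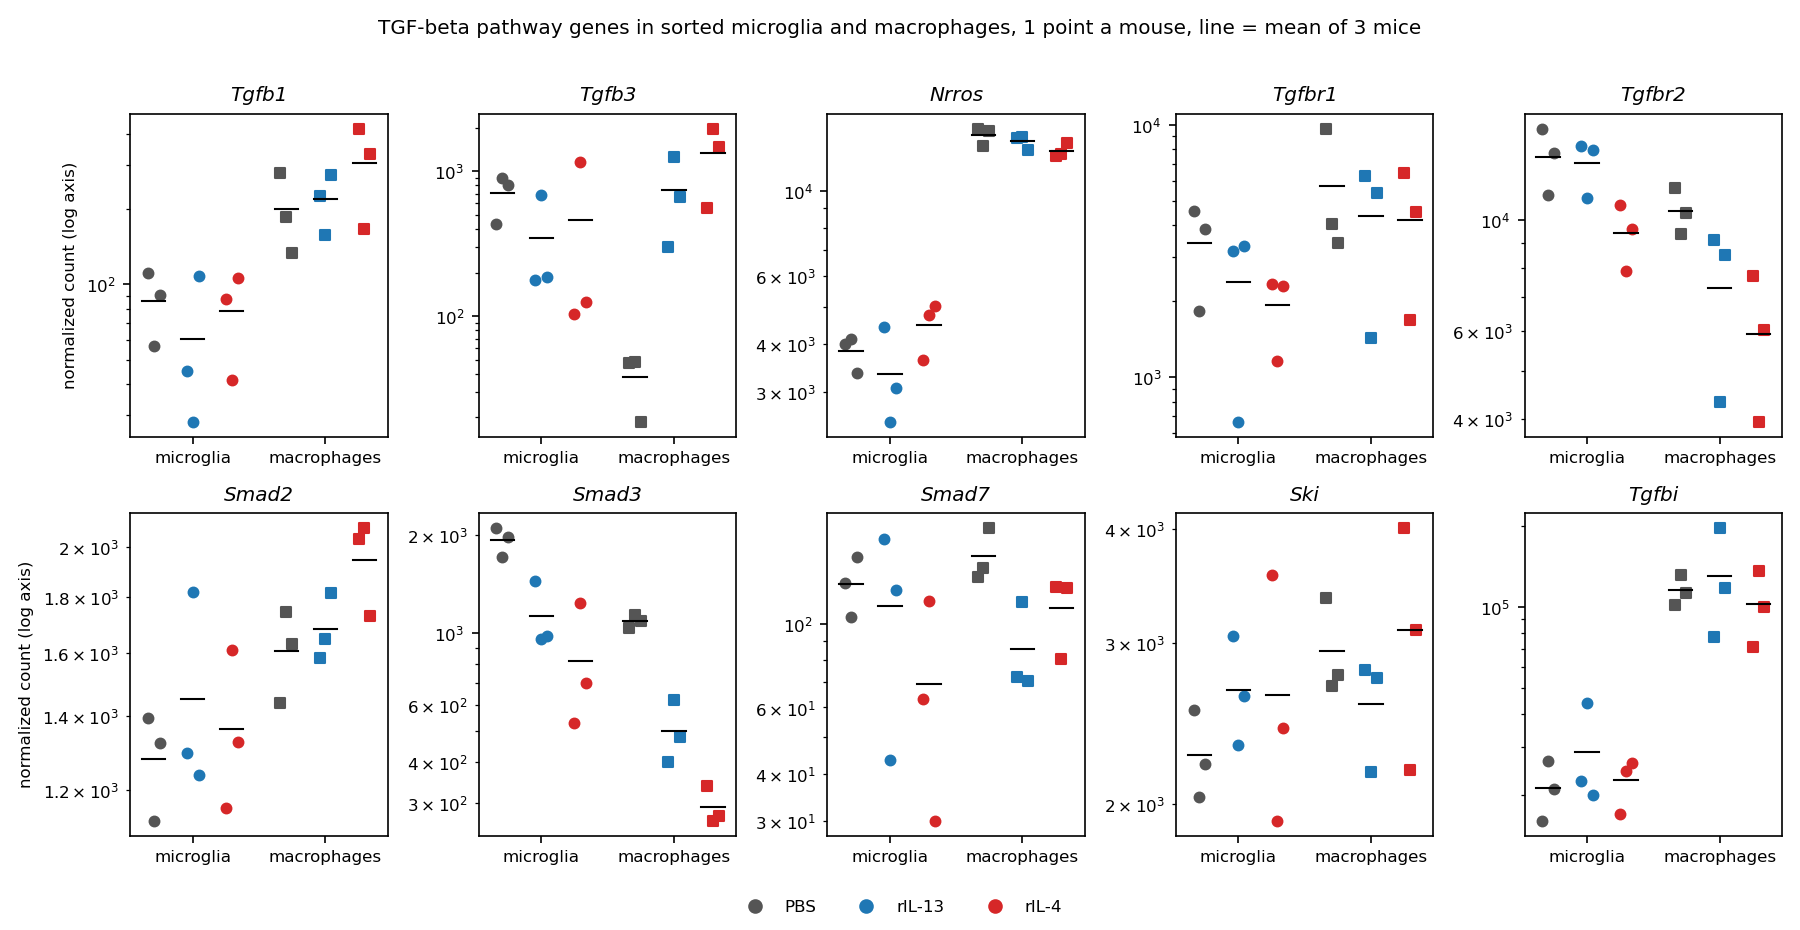
Normalized counts (log axis) of the 10 genes in microglia (circles) and macrophages (squares) of PBS, rIL-13 and rIL-4 mice, with 1 point per mouse and a line at the mean of 3 mice. Tgfb3 in PBS macrophages (18.6 to 48.2) sits below every other library, Smad3 steps down from PBS to the cytokine groups, and Nrros and Tgfbi separate by cell type.

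The first question was which members changed in macrophages when the cord received rIL-4 or rIL-13. Tgfb3 rose and Smad3 fell in both cytokine groups. These were 2 of 10 members called for rIL-4 against PBS, where 14% of the 13606 genes tested were called, and 2 of 10 for rIL-13 against PBS, where 4.19% were. Both comparisons share the PBS mice. The median log2 change of the 10 was -0.1 for rIL-4 (0.02 over all genes) and -0.09 for rIL-13 (0 over all genes). The groups did not overlap for 4 members in each comparison, beside 34.1% of all genes for rIL-4 and 24.3% for rIL-13.

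Tgfb3 encodes a TGF-beta ligand whose protein signals through the same receptors as TGF-beta1. In macrophages it stood at 47.4, 48.2 and 18.6 normalized counts in PBS mice 1, 2 and 3. It stood at 300.0, 1256 and 665.8 in rIL-13 mice 5, 6 and 7, and at 557.3, 1971 and 1462 in rIL-4 mice 8, 9 and 10. Every cytokine-injected mouse was above every PBS mouse, and the spread within the cytokine groups was several-fold. The rise was 36.3-fold for rIL-4 (log2 fold change 5.18, SE 0.67, adjusted p = 0.000888) and 19.8-fold for rIL-13 (4.31, SE 0.65, adjusted p = 0.00572, both edgeR). The groups of the 2 cytokines overlapped, and their difference (adjusted p = 0.605) was not called. Without mice 6 and 9 the log2 changes were 4.79 and 3.71, and both calls held.

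Markers of other cells were followed beside this rise. The astrocyte list (5 genes) summed to 9.25 to 11.5 CPM in PBS macrophages, 43.4 to 338.1 in rIL-13 and 52.8 to 448.4 in rIL-4 macrophages, with its highest values in mice 6 and 9. Of that list, Gja1, a gap junction gene, held most of that level (medians of 5.28, 88.9 and 139 CPM in PBS, rIL-13 and rIL-4 macrophages), while Gfap was at 4.79, 2.53 and 2.32 CPM and Aqp4 was near 0 (0.026, 0.151 and 0.0218 CPM). The endothelial list summed to 46.8 to 60.8 CPM in PBS, 124.6 to 188.5 in rIL-13 and 226.3 to 396.5 in rIL-4 macrophages, and its members went both ways, with 2 of 6 called higher and 2 of 6 lower for rIL-4. Pecam1, an adhesion molecule also known on leukocytes, had medians of 7.44, 121 and 165.1 CPM. Flt1 (6.19, 27.7 and 46.9 CPM) and Vwf (5.78, 11.8 and 14.8 CPM) also had higher medians with each cytokine. The endothelial tight junction gene Cldn5 was at 2.06, 1.92 and 0.733 CPM, the VEGF receptor Kdr at 27.3, 6.53 and 5.65 CPM, and Cdh5 at 0.442, 0.501 and 0.506 CPM. Neutrophil markers (8 genes) were at 709.7 to 1258 CPM in PBS macrophages, at 390.0, 2534 and 374.9 CPM in rIL-13 mice 5, 6 and 7, and at 164.3, 677.6 and 319.0 CPM in rIL-4 mice 8, 9 and 10. Platelet markers (4 genes) were at 58.0 CPM in macrophages of mouse 6 and at 2.8 to 12.6 CPM in those of the other mice. The part of these cells in the Tgfb3 result was not tested. In bulk RNA, a change in the number of cells of a type cannot be told apart from a change in RNA per cell.

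Smad3 encodes the receptor-activated Smad that binds DNA directly. In macrophages it was at 1034, 1134 and 1085 normalized counts in the PBS mice, at 400.4, 619.7 and 476.8 in the rIL-13 mice and at 339.5, 263.7 and 272.9 in the rIL-4 mice. The 3 groups did not overlap, and the coefficient of variation of the PBS mice was 4.58%. Relative to PBS, Smad3 fell by 1.84 on the log2 scale with rIL-4 (SE 0.19, adjusted p = 0.000248) and by 1.09 with rIL-13 (SE 0.18, adjusted p = 0.00937, both edgeR). The step from rIL-13 to rIL-4 was a log2 difference of -0.75 (SE 0.18) with an adjusted p of 0.151 in edgeR and 0.0157 in DESeq2. Fitting all 18 libraries in 1 model moved the adjusted p of the rIL-13 effect to 0.0584 at a log2 change of -1.1. The microglia markers, whose gate had the higher Smad3, followed the same order in these macrophage libraries, at 2674 to 4218 CPM with PBS, 1036 to 2049 CPM with rIL-13 and 440.4 to 846.1 CPM with rIL-4. Of the 10 markers, 10 were called lower for rIL-4 and 4 for rIL-13, and their part in the levels of Smad3, and of Tgfbr2 below, was not tested.

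Smad2, the other receptor-activated Smad, was not called in any macrophage comparison. It was at 1441, 1745 and 1629 normalized counts in PBS macrophages, 1582, 1648 and 1815 with rIL-13, and 2032, 2081 and 1728 with rIL-4. The rIL-4 mean was the higher one, with a log2 difference of 0.33 (SE 0.13, adjusted p = 0.139), and the groups overlapped. The difference between the responses of the 2 genes was not tested.

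Among the receptors, Tgfbr2, which binds the ligand, had lower values in every cytokine-injected macrophage library. It was at 11606, 9374 and 10318 normalized counts in PBS mice, 9104, 4330 and 8492 in rIL-13 mice and 7741, 3947 and 6032 in rIL-4 mice, so neither cytokine group overlapped PBS. For rIL-4 the log2 difference was -0.77 (SE 0.29) with an adjusted p of 0.114 in edgeR. That p was 0.0486 in DESeq2, 0.0493 without the filter on low counts, 0.0345 without mouse 6 and 0.031 without mice 6 and 9, where the log2 difference was -0.55. Only settings with a p under 0.05 are listed here, and mice 6 and 9 were picked partly by their low Tgfbr2. For rIL-13 the log2 difference was -0.48 (SE 0.29, adjusted p = 0.448 in edgeR). Tgfbr1, the signalling receptor, varied too much between mice to separate groups: it was at 9670, 4042 and 3390 in PBS macrophages, at 6300.0, 1426 and 5374 with rIL-13, and at 6438, 1690 and 4506 with rIL-4.

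Of the inhibitors, Smad7 had lower levels in cytokine-injected macrophages, at 133.2, 141.1 and 180.1 normalized counts with PBS, 72.1, 114.2 and 70.6 with rIL-13, and 125.5, 80.7 and 124.6 with rIL-4. Neither cytokine group overlapped PBS, and neither difference was called. The larger one, for rIL-13, was a log2 difference of -0.79 (SE 0.31, adjusted p = 0.203). Ski, a co-repressor of Smad complexes, overlapped between all groups of macrophages (2167 to 4008 normalized counts).

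The remaining members of macrophages overlapped between groups. Tgfb1, the main TGF-beta ligand of myeloid cells, was at 280.0, 185.8 and 133.2 normalized counts with PBS, 225.3, 157.2 and 273.7 with rIL-13, and 419.8, 167.3 and 332.8 with rIL-4. Mouse 9 was the low one of the rIL-4 group, and without mice 6 and 9 the log2 difference from PBS was 0.97 with an adjusted p of 0.0447, against 0.67 and 0.281 with them. Low Tgfb1 was part of why these mice were set apart, so the fit without them is no independent test. Nrros was among the steadiest members, at 12301 to 14477 normalized counts over all 9 macrophage libraries. Tgfbi, an extracellular matrix protein named for its induction by TGF-beta, ranged from 71109 to 197556 with group means of 115505 (PBS), 130757 (rIL-13) and 102330 (rIL-4).

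In direct comparison of rIL-4 with rIL-13 macrophages, edgeR called 0 of 10 members, where 0.25% of all genes were called. At an unadjusted p under 0.05 there was 1 member, Smad3, beside 1513 of 13606 genes, and DESeq2 called that 1, beside 3.09% of all genes. Adjusted p of the 10 members ranged from 0.151 to 0.989.

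**Figure D2:**
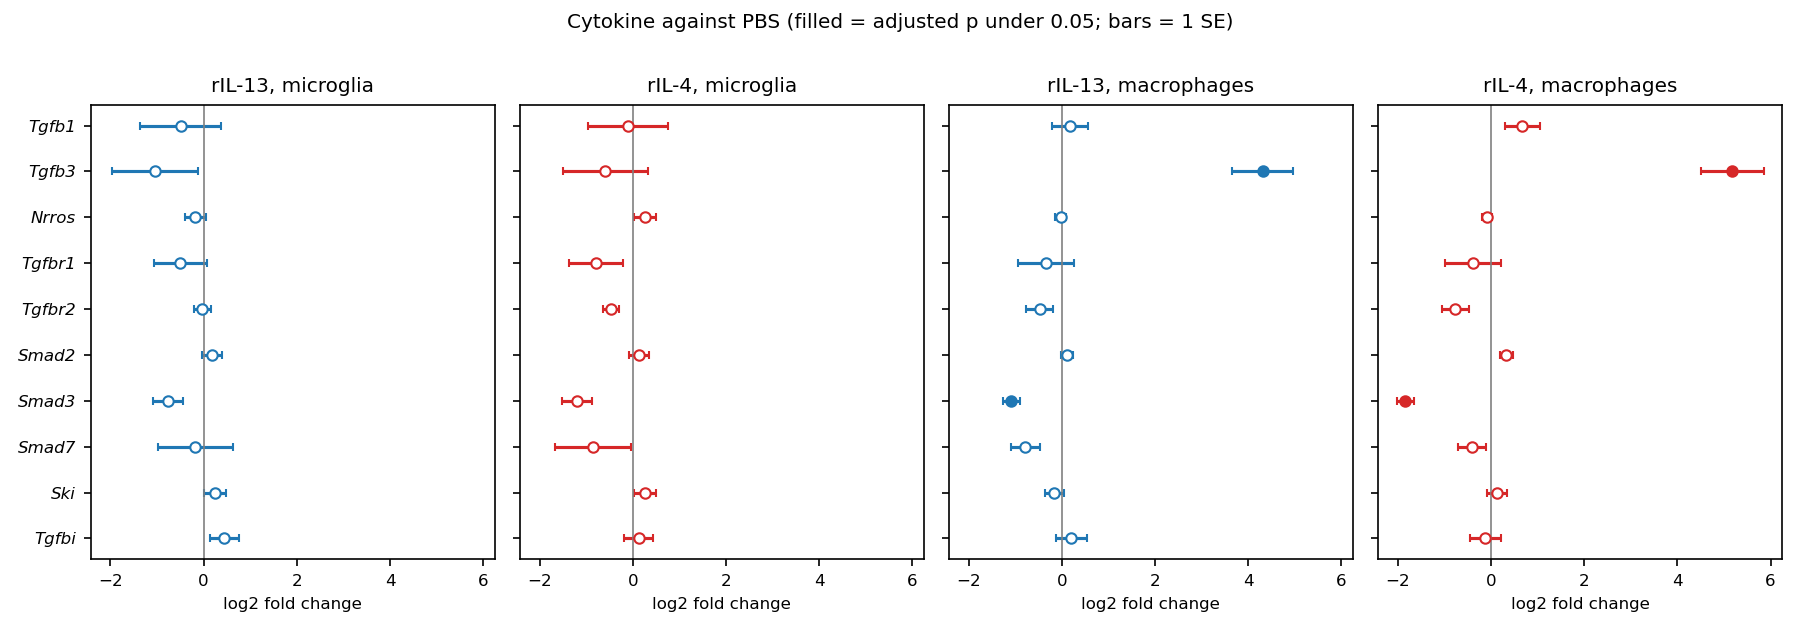
Log2 fold change against PBS (x axis, bars of 1 SE, filled where the adjusted p was under 0.05) of the 10 genes in each cytokine group and cell type. Tgfb3 (5.18 and 4.31) and Smad3 (-1.84 and -1.09) are filled in macrophages, and no gene is filled in microglia.

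In microglia, no member was called under either cytokine, and Smad3 came closest. For rIL-4 against PBS edgeR called 0 of 10, where 2.22% of 15566 genes were called, with 2 members (Smad3 and Tgfbr2) at an unadjusted p under 0.05 (beside 2553 genes) and 1 called by DESeq2 (beside 7.81%). For rIL-13 against PBS it called 0 of 10, beside 0.366% of all genes, with 1 (Smad3) at an unadjusted p under 0.05 (beside 1208 genes) and 0 called by DESeq2 (beside 2.07%). For rIL-4 against rIL-13 it called 0 of 10, beside 0.0385%, with 1 (Tgfbr2) at an unadjusted p under 0.05 (beside 1773 genes) and 0 called by DESeq2 (beside 3.58%). The median log2 change of the 10 was -0.29 for rIL-4 and -0.18 for rIL-13, beside -0.06 and 0 over all genes. Groups that did not overlap numbered 2, 1 and 1 of 10 in these comparisons, beside 26%, 16.1% and 12.2% of all genes.

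Smad3 was at 2098, 1705 and 1968 normalized counts in PBS microglia, 1442, 954.7 and 979.6 in rIL-13 microglia and 528.4, 1232 and 702.2 in rIL-4 microglia. Every cytokine-injected mouse was below every PBS mouse, and mouse 9 was the high one of the rIL-4 group. The log2 difference from PBS was -1.19 (SE 0.32, adjusted p = 0.107) for rIL-4 and -0.76 (SE 0.32, adjusted p = 0.618) for rIL-13 in edgeR. The rIL-4 difference was called in DESeq2 (adjusted p = 0.0124), with all 18 libraries in 1 model (0.0146) and without mouse 9 (0.0354, log2 difference -1.61).

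Tgfbr2 was at 15224, 11213 and 13630 normalized counts in PBS microglia, at 14026, 11046 and 13821 with rIL-13, and at 10733, 7900.0 and 9582 with rIL-4. The rIL-4 mice were below all the others, at a log2 difference of -0.47 from PBS (SE 0.18, adjusted p = 0.24) and -0.44 from rIL-13 (SE 0.18, adjusted p = 0.419). Tgfbr1 was lower in mean with each cytokine and overlapped between groups, at 4557, 1838 and 3859 with PBS, 3173, 664.9 and 3303 with rIL-13, and 2348, 1160 and 2291 with rIL-4.

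Tgfb3 in microglia depended on the mouse. It was at 430.2, 901.0 and 800.5 normalized counts in the PBS mice, at 176.8, 683.7 and 186.1 in rIL-13 mice 5, 6 and 7, and at 102.9, 1152 and 125.0 in rIL-4 mice 8, 9 and 10. The other cytokine-injected mice were below every PBS mouse, and mice 6 and 9 were inside or above the PBS range. The log2 difference of rIL-4 from PBS was -0.59 (SE 0.91, adjusted p = 0.86), and without mice 6 and 9 it was -2.60 with an adjusted p of 0.038. Mouse 9 was set apart partly for its high Tgfb3, so the fit without it cannot test a fall of Tgfb3. In the same libraries the fibroblast and pericyte list (9 genes) summed to 2842 to 4361 CPM in PBS mice, 2091, 9720 and 1584 CPM in mice 5, 6 and 7, and 1581, 1100 and 225.2 CPM in mice 8, 9 and 10. Its part in the Tgfb3 levels was not tested.

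The other members of microglia overlapped between all groups. In the same libraries the summed microglia markers were 5102 to 9768 CPM with rIL-13 and 3690 to 5523 CPM with rIL-4, and the monocyte and macrophage list was above every PBS library. The endothelial list summed to 809.5 to 1755 CPM with PBS, 1832 to 3137 CPM with rIL-13 and 1821 to 2750 CPM with rIL-4, with 0 of its 6 genes called for either cytokine. The part of these lists in the levels of Smad3 and Tgfbr2 was not tested. Tgfb1 was low throughout, at 28.2 to 111.0 normalized counts, and Smad7 was at 29.9 to 168.5. Nrros was at 2515 to 5021, Smad2 at 1123 to 1818, Ski at 1913 to 3562 and Tgfbi at 15910 to 43980, with the highest Smad2 and Tgfbi in mouse 6.

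**Figure D3:**
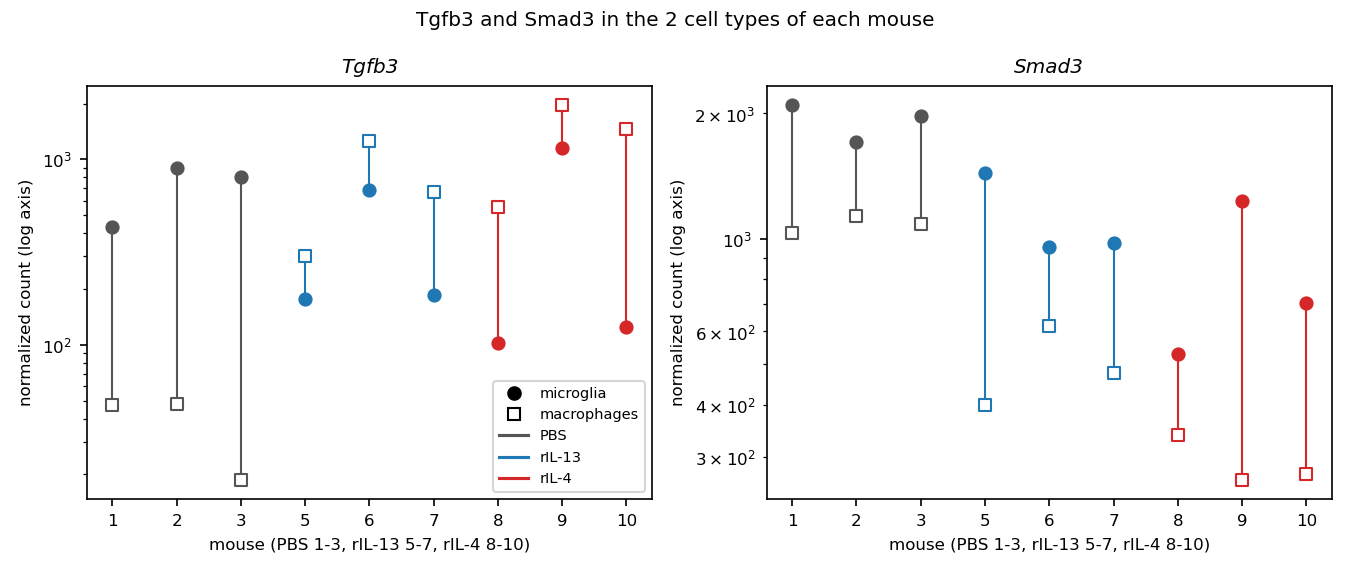
Tgfb3 and Smad3 in normalized counts (log axis) for each of the 9 mice, with microglia as filled circles and macrophages as open squares joined by a line. For Tgfb3 the microglia are above the macrophages in the 3 PBS mice and below them in the 6 cytokine-injected mice, and for Smad3 the microglia are above in all 9.

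Whether the cell types responded differently was tested as the difference between their fold changes. Tgfb3 was the 1 member of 10 called for rIL-4 against PBS, where 0.992% of 16535 genes were called. Its response in microglia was lower than that in macrophages by 5.80 on the log2 scale (a difference of -5.80, SE 1.25, adjusted p = 0.0374, edgeR). With the mouse as a replicate block the difference was -6.51 (adjusted p = 0.00463), and without mice 6 and 9 it was -7.41 (adjusted p = 0.00329). Mice 6 and 9 were picked partly by their Tgfb3 levels, so the fit without them is no independent support. The call was lost when mouse 1, 2, 3, 7, 8 or 10 was left out, with adjusted p of 0.137, 0.145, 0.218, 0.0637, 0.0622 and 0.117.

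The same difference for rIL-13 against PBS was -5.34 for Tgfb3 (SE 1.24, unadjusted p = 0.000537, adjusted p = 0.295 in edgeR), and 0 of 10 members were called beside 0.0242% of all genes. DESeq2 called 1, Tgfb3 (adjusted p = 0.00075), beside 0.931% of all genes. So did edgeR without mice 6 and 9 (-5.63, adjusted p = 0.0486), with the same limit on that fit. For rIL-4 against rIL-13 edgeR called 0 of 10, beside 0.139% of all genes, with 0 at an unadjusted p under 0.05 (beside 1654 of 16535 genes) and 0 called by DESeq2 (beside 1.81%). For Smad3 the difference between cell types was 0.62 for rIL-4 (SE 0.38, adjusted p = 0.582), so a difference in its response was not shown.

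Between microglia and macrophages of the same mice, Nrros and Tgfbi were lower in microglia and Smad3 was higher in every group. In PBS mice 6 of 10 members were called (2 higher and 4 lower in microglia), where 40.9% of 14715 genes were called. In rIL-13 mice 3 of 10 were called, beside 26.7% of all genes, and in rIL-4 mice 4 of 10, beside 23.4%. With 1 mouse left out these counts were 3 to 4 (3 without mouse 3), 1 to 5 (1 without mouse 7 and 5 without mouse 6) and 2 to 4 (2 without mouse 10). Groups did not overlap for 7, 5 and 6 members, beside 54%, 44.8% and 41% of all genes.

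Nrros was at 3996, 4132 and 3366 normalized counts in PBS microglia and at 14477, 13049 and 14286 in the macrophages of those mice. The log2 difference of microglia from macrophages was -1.92 (SE 0.12, adjusted p = 1.09e-05) with PBS, -2.03 (SE 0.24, adjusted p = 0.00115) with rIL-13 and -1.54 (SE 0.17, adjusted p = 0.000712) with rIL-4, all by edgeR. Tgfbi was at 15910, 26610 and 20967 in PBS microglia and at 101732, 132286 and 112498 in PBS macrophages. Its log2 difference was -2.51 (SE 0.2, adjusted p = 3.01e-05) with PBS, -2.22 (SE 0.43, adjusted p = 0.00814) with rIL-13 and -2.22 (SE 0.29, adjusted p = 0.00159) with rIL-4. Without mouse 7 the rIL-13 difference of Tgfbi had an adjusted p of 0.0922.

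Smad3 and Tgfbr2 were higher in microglia than in macrophages of the same mouse in all 9 mice. For Smad3 the log2 difference was 0.77 (SE 0.15, adjusted p = 0.00296) with PBS, 1.15 (SE 0.28, adjusted p = 0.0202) with rIL-13 and 1.45 (SE 0.36, adjusted p = 0.0243) with rIL-4. These calls were lost without mouse 3 (adjusted p = 0.0503), without mouse 5 or 7 (0.171 and 0.132) and without mouse 9 or 10 (0.13 and 0.125), and with the mouse as a replicate block the rIL-4 difference had an adjusted p of 0.0616.

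In PBS mice Tgfb3 had a log2 difference of microglia from macrophages of 4.16 (SE 0.46, adjusted p = 0.000164). In the cytokine groups its level was lower in microglia than in macrophages of the same mouse in 6 of 6 mice, with log2 differences of -1.12 (SE 0.68, adjusted p = 0.281) for rIL-13 and -1.58 (SE 0.94, adjusted p = 0.297) for rIL-4 that were not called. Tgfb1 was lower in microglia in every mouse, at log2 differences of -1.27 (SE 0.44, adjusted p = 0.0461) with PBS, -1.88 (SE 0.64, adjusted p = 0.0665) with rIL-13 and -2.01 (SE 0.58, adjusted p = 0.042) with rIL-4. The PBS call of Tgfb1 was lost without mouse 1, 2 or 3 (adjusted p of 0.132, 0.154 and 0.0863) and with the mouse as a block (0.0526), its rIL-4 call without mouse 8, 9 or 10 (0.221, 0.0521 and 0.156) and without the filter on low counts (0.0572), and its rIL-13 difference was called with the block (0.0481).

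Ski was lower in PBS microglia by a log2 difference of -0.44 (SE 0.15, adjusted p = 0.0424), a call lost without mouse 1, 2 or 3 (0.0571, 0.0925 and 0.148). Tgfbr2 went the other way from Tgfbr1 in the cytokine groups: it was the higher in microglia, at log2 differences of 0.80 (SE 0.29, adjusted p = 0.0874) for rIL-13 and 0.63 (SE 0.25, adjusted p = 0.119) for rIL-4. With the mouse as a replicate block both were called (0.86, adjusted p = 0.023, and 0.67, adjusted p = 0.0272), as was the lower Tgfbr1 of rIL-4 microglia (-1.03, adjusted p = 0.0195), and members called in rIL-13 mice numbered 6 rather than 3. Smad2 was lower in microglia, at -0.38 (SE 0.15, adjusted p = 0.0796) with PBS and -0.55 (SE 0.19, adjusted p = 0.0752) with rIL-4, and Smad7 overlapped between the cell types in every group.

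**Figure D4:**
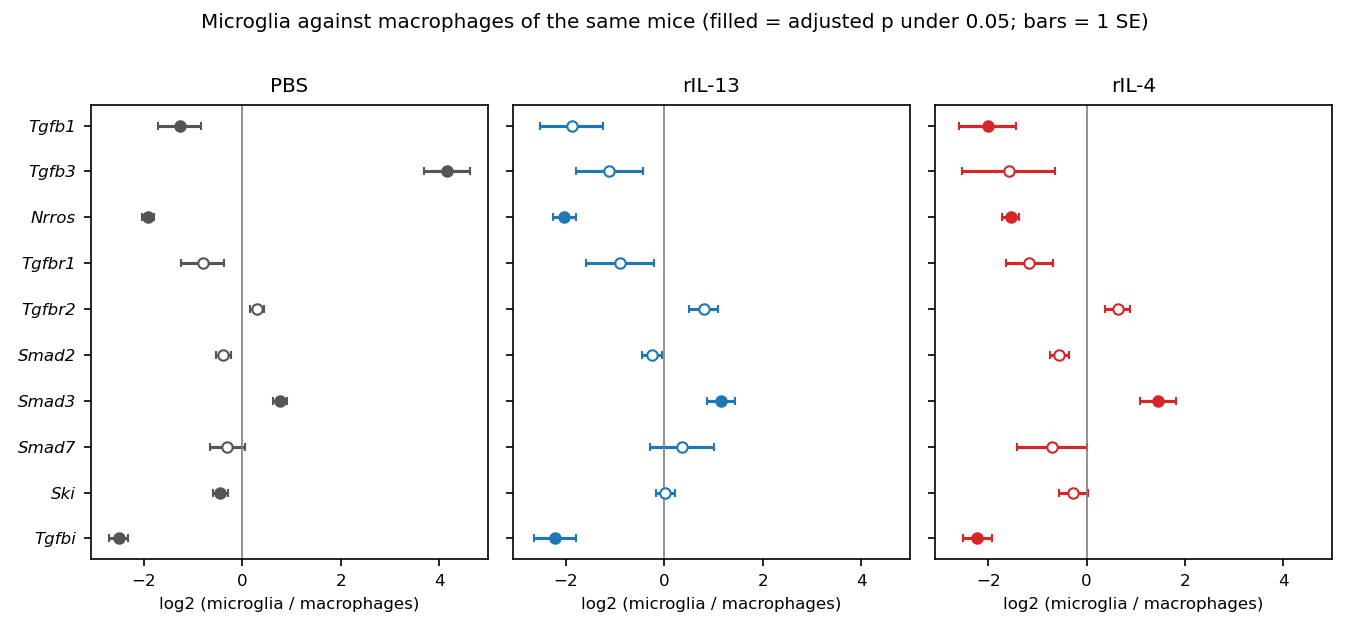
Log2 ratio of microglia to macrophages (x axis, bars of 1 SE, filled where the adjusted p was under 0.05) of the 10 genes in PBS, rIL-13 and rIL-4 mice. Nrros and Tgfbi are left of 0 and Smad3 right of 0 in all 3 groups, and Tgfb3 moves from 4.16 in PBS mice to -1.12 and -1.58 in the cytokine groups.

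The rest of the pathway was read from 6 lists with 79 genes in the file (other ligands, latent complex and activation, other receptors, other Smads and cofactors, other inhibitors and known target genes). In microglia, rIL-4 called 7 of 73 tested (1 higher and 6 lower, 9.59% beside 2.22% of all genes), and this count ran from 2 to 8 with 1 mouse left out. Among the largest were the target genes Acta2 (mean of 8203 normalized counts with PBS and 437.1 with rIL-4, log2 fold change -4.19, SE 0.4, adjusted p = 0.00127) and Tagln (2094 and 171.8, -3.57, SE 0.33, adjusted p = 0.00122), both contractile genes of smooth muscle and myofibroblasts. Ctgf, a matricellular protein, fell by 2.94 (adjusted p = 0.0485) and Id3, a repressor induced by BMP signals, by 1.87 (adjusted p = 0.0269). Furin, the protease that cleaves the TGF-beta propeptide, rose from 921.3 to 2753 (1.61, SE 0.31, adjusted p = 0.03), Itgb5 fell from 5399 to 1677, and Bmp6 averaged 79.7 with PBS and had 0 counts in the 3 rIL-4 libraries. The calls of Itgb5, Furin, Ctgf and Id3 were lost when any PBS mouse was left out. The fibroblast and pericyte list summed to 225.2 to 1581 CPM in these rIL-4 libraries and 2842 to 4361 CPM in PBS, and its part in the lower target genes was not tested. With rIL-13, 2 of 73 were called (2.74% beside 0.366%), Acta2 at -2.71 (adjusted p = 0.017) and Tagln at -2.05 (adjusted p = 0.0288). This count ran from 0 to 2 with 1 mouse left out, and 0 were called without mice 6 and 9. The median of the 73 was -0.51 for rIL-4 (-0.06 over all genes) and -0.07 for rIL-13 (0 over all genes).

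In macrophages, rIL-4 called 15 of 58 tested pathway genes (7 higher and 8 lower, 25.9% beside 14% of all genes), and leaving out 1 mouse gave 9 to 17. Itgb3, an integrin subunit that can free latent TGF-beta, rose from 220.9 to 1161 normalized counts (2.45, SE 0.33, adjusted p = 0.00107), and Smad4, the shared partner of the receptor-activated Smads, rose from 216.6 to 439.4 (1.07, SE 0.26, adjusted p = 0.022). Thbs1, an activator of latent TGF-beta, fell from 284120 to 63680 (-2.10, SE 0.35, adjusted p = 0.00324), and Mmp14, a membrane protease, from 3234 to 1136 (-1.46, SE 0.26, adjusted p = 0.00435). Smurf1, a ubiquitin ligase that lowers Smads and receptors, rose by 1.15 (adjusted p = 0.0383) and Tgif1, a co-repressor, fell by 0.63 (adjusted p = 0.0153). Ltbp3, a latent TGF-beta binding protein, rose from 150.1 to 340.2 (1.23, SE 0.36, adjusted p = 0.0484). Leaving out 1 mouse at a time ended the call of Ltbp3 in 7 of 9 fits, Smurf1 in 6, Smad4 in 4, Tgif1 in 2 and Id3 in 1, with adjusted p of up to 0.152, 0.127, 0.0863, 0.0627 and 0.0604. Of the target genes 2 rose and 5 fell, and the largest changes were at genes of low level. The matricellular Cyr61 fell from a mean of 28.1 to 0.634 normalized counts (adjusted p = 0.00507), and Col1a1, a collagen gene also on the fibroblast list, from 57.3 to 3.81 (-3.82, SE 0.78, adjusted p = 0.0102). The fibroblast and pericyte list summed to 4.76 to 8.26 CPM in PBS and 0.262 to 1.23 CPM in rIL-4 macrophages, and its part was not tested. Of the others, Fn1, which is also on the monocyte and macrophage marker list, rose from 53669 to 210691 (2.03, SE 0.36, adjusted p = 0.0045) and Id3 fell from 141.3 to 27.2 (-2.32, adjusted p = 0.0138). With rIL-13, 6 of 58 were called (3 higher and 3 lower, 10.3% beside 4.19%, and 2 to 7 with 1 mouse left out), Mmp14 (-1.54), Itgb3 (1.5), Furin (1.12), Tgif1 (-0.69), Fn1 (1.83) and Id2 (-0.79), with adjusted p of 0.00906, 0.029, 0.00119, 0.0247, 0.0194 and 0.0151. Leaving out 1 mouse at a time ended the rIL-13 call of Tgif1 in 7 of 9 fits, Itgb3 in 6, and Fn1 and Id2 in 3 each, with adjusted p of up to 0.099, 0.0988, 0.0988 and 0.0686. Between the cytokines edgeR called 0 of 58 pathway genes in macrophages and 0 of 73 in microglia, with 10 and 16 at an unadjusted p under 0.05 (beside 1513 of 13606 and 1773 of 15566 genes) and 7 and 6 called by DESeq2 (beside 3.09% and 3.58% of all genes).

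Between the cell types, 49 of 71 pathway genes differed in PBS mice (35 higher and 14 lower in microglia, 69% beside 40.9% of all genes), 37 of 70 in rIL-13 mice (52.9% beside 26.7%, and 21 to 38 genes with 1 mouse left out) and 34 of 64 in rIL-4 mice (53.1% beside 23.4%, and 21 to 30). In PBS microglia the latent TGF-beta binding protein Ltbp1 averaged 2313 normalized counts and Lrrc32, a tether of latent TGF-beta related to Nrros, 2071, against 0.376 and 8.96 in PBS macrophages. Tgfb2, the remaining TGF-beta ligand, was at 251.1 against 2.24 (log2 difference 6.66, SE 0.61, adjusted p = 6.34e-05), the co-receptor Tgfbr3 at 588.8 against 13.4 (5.37, SE 0.71, adjusted p = 0.000451) and the endothelial co-receptor Eng at 12687 against 993.7 (3.61, SE 0.33, adjusted p = 6.51e-05). The microglia gate also held 2842 to 4361 CPM of the fibroblast and pericyte list and 809.5 to 1755 CPM of the endothelial list in PBS mice, against 4.76 to 8.26 and 46.8 to 60.8 CPM in macrophages, and their part in these differences was not tested.

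A further list held 16 microglia genes known to need TGF-beta. Of these, 9 are also microglia markers, so the list and the marker level are not independent. The summed monocyte and macrophage list, mostly Chil3 with rIL-4, was higher in the cytokine libraries of both cell types, and its part was not tested. In microglia rIL-4 lowered 6 of 16 and raised 0 (0.887% of all genes were lower), among them Slc2a5 (-4.35, SE 0.76, adjusted p = 0.0218), Tmem119 (-2.26, SE 0.39, adjusted p = 0.0218), P2ry13 (-2.20, SE 0.34, adjusted p = 0.0136) and Cx3cr1 (-2.07, SE 0.43, adjusted p = 0.0444), with a median log2 change of -1.35 over the 16 beside -0.06 over all genes. That count ran from 0 to 6 with 1 mouse left out. With rIL-13 edgeR called 0 of 16, with 8 at an unadjusted p under 0.05 (beside 1208 of 15566 genes) and 3 called by DESeq2 (beside 2.07%), and the median was -0.87 beside 0 over all genes. In macrophages rIL-4 lowered 14 of 16 (median -2.52 beside 0.02, with 7.2% of all genes lower), with Cx3cr1 at -4.58 (SE 0.3, adjusted p = 1.87e-05) and Gpr34 at -4.26 (SE 0.61, adjusted p = 0.00157), and rIL-13 lowered 5 of 16 (median -1.04 beside 0, with 1.66% of all genes lower, and 2 to 7 with 1 mouse left out). Between the cytokines 5 of 16 were lower with rIL-4 in macrophages (0.22% of all genes), among them Sall1, a transcription factor of microglial identity (-3.17, SE 0.53, adjusted p = 0.0455), and this count was 2 without mice 6 and 9 and ran from 0 to 6 with 1 mouse left out.

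The response to rIL-4 also differed between the cell types for 2 of 73 wider pathway genes (2.74% beside 0.992% of all genes, and 1 to 2 genes with 1 mouse left out) and 3 of the 16 microglia genes. Acta2 (a difference of -3.08, SE 0.42, adjusted p = 0.0022) and Tagln (-3.57, SE 0.57, adjusted p = 0.00764) had the more negative response in microglia, and the Tagln call was lost without mouse 1 or 8 (0.0844 and 0.0562). Cx3cr1, the fractalkine receptor (2.49, SE 0.53, adjusted p = 0.0374), Fcrls (2.46, SE 0.51, adjusted p = 0.0315) and Gas6, a ligand of the receptor Mertk (1.43, SE 0.3, adjusted p = 0.0315), had the more negative response in macrophages. Leaving out 1 mouse at a time ended the call of Cx3cr1 and of Fcrls in 7 of 9 fits (without mouse 1, 2, 3, 7, 8, 9 or 10) and that of Gas6 in 5 (without mouse 1, 2, 3, 7 or 9), with adjusted p of up to 0.191, 0.174 and 0.195, and without mice 6 and 9 that of Gas6 was 0.0779. With 1 mouse left out 0 to 4 of the 16 were called, and 2 without mice 6 and 9. For rIL-13 edgeR called 0 of 73 and 0 of 16, with 9 and 0 at an unadjusted p under 0.05 (beside 964 of 16535 genes) and 2 and 0 called by DESeq2 (beside 0.931%). For rIL-4 against rIL-13 it called 0 of 16, with 5 at an unadjusted p under 0.05 (beside 1654 genes) and 2 called by DESeq2 (beside 1.81%), and 1 of 73, Cyr61 (adjusted p = 0.0496), a call that was lost in 8 of 9 fits with 1 mouse left out (up to 0.181), with the mouse as a replicate block (0.0612) and without mice 6 and 9 (0.174).

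The genes whose level followed each member most closely were found by Pearson's r of log2 CPM over the 18 libraries, which come from 9 mice and 6 groups and share cell type and treatment. Smad3 was followed by Alox5 (r = 0.955), the leukotriene-forming lipoxygenase, and Cd276 (0.936). Tgfb3 was followed by Gja1 (0.895), the gap junction gene named above, and Timp1 (0.876), an inhibitor of matrix proteases. Nrros was followed by Atp6v0c (0.982), a proton pump subunit, and Itgb2 (0.974), a leukocyte integrin subunit. Tgfbi was followed by Ocstamp (0.968) and Klra17 (0.967), and Tgfb1 by Ppp1r15b (0.963) and Vcpip1 (0.94). Tgfbr2 was followed by Etl4 (0.943), and Tgfbr1 by Tnfrsf21 (0.91) and Galc (0.905). The closest genes of Smad2, Smad7 and Ski had r of 0.883 (E230016K23Rik), 0.854 (Zbtb18) and 0.848 (Phf2). Among the members themselves the closest pair over the 18 libraries was Nrros and Tgfbi (r = 0.9), while Smad2 and Smad3 ran opposite (r = -0.63), as did Tgfbr2 and Tgfbi (r = -0.7).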

How the data were processed

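RNA of sorted microglia and macrophages was made into SMART-seq2 libraries and sequenced by the authors. The authors aligned reads to GRCm38 with STAR 2.5.3a and quantified them with RSEM 1.3.0, and the deposited values are expected counts per gene given as whole numbers. The protocol marks neither strand nor molecules, so PCR copies count as reads. No column was left unassigned, and columns were matched to samples by title.

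Counts were analysed with edgeR 4.0.16 in R 4.3.3 (TMM, filterByExpr, quasi-likelihood test, Benjamini-Hochberg over all genes tested, threshold 0.05). Treatment comparisons used the 9 libraries of a cell type, cell type comparisons the 6 libraries of a treatment, and differences between cell types in response all 18. DESeq2 1.42.0 gave size factors and the alternative Wald test. The fit was tested on simulated counts of rIL-4 against PBS in microglia. It called 50% of 200 genes changed 4-fold, with 1 false call. A member that was not called is therefore not shown to be unchanged. The mouse pairs the cell types because both came from the same animal. Within each mouse, correlations of same-mouse deviations over all genes were 0.02 to 0.09. For single members over the 9 mice, such correlations ran from -0.77 (Smad7) to 0.95 (Ski), beside a median of 0.13 over all genes. The main fit did not use the pairing, and the replicate block did. Log2 CPM for correlations used a prior count of 2. Lengths and positions came from GENCODE M21 (53274 of 53465 IDs matched without version; Nrros and Smad2 differ in version).

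All members were named with values. From each wider list at most the 4 called genes with the largest change were named, and for each member the 2 most similar genes were sought, of which 1 is not reported here. The members and lists were chosen with earlier results of these data known. Medians and counts of lists are descriptions.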

Additional observations from a re-analysis of the deposited data

Results flagged for a closer look

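The response of Tgfb3 to rIL-4 differed between microglia and macrophages in the test of that difference: it was -5.80 on the log2 scale (SE 1.25, adjusted p = 0.0374, edgeR), with higher levels than PBS in 3 of 3 rIL-4 macrophage libraries and lower levels than every PBS mouse in 2 of 3 rIL-4 microglia libraries. No group was large enough to test a single sample as an outlier.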

How the results depend on the processing

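Counts of members called are given first. For rIL-4 against PBS in microglia the count of 0 became 1 with DESeq2 and 1 with all 18 libraries in 1 model, and ran from 0 to 1 with 1 mouse left out. In macrophages the 2 for rIL-4 became 3, with Tgfbr2 added, with DESeq2 and without the filter on low counts and ran from 2 to 3 with 1 mouse left out, the 2 for rIL-13 became 1 with all 18 libraries, and the 0 between the cytokines became 1 with DESeq2. Between cell types, the 6 in PBS mice ran from 3 to 4 with 1 mouse left out, the 4 in rIL-4 mice from 2 to 4 and the 3 in rIL-13 mice from 1 to 5. In rIL-13 mice the count was 5 with DESeq2, 5 with all 18 libraries and 6 with the mouse as replicate block. The differences between cell types in response gave 0 to 1 for rIL-4 with 1 mouse left out, and for rIL-13 1 with DESeq2. Leaving out mice 6 and 9 together, chosen after seeing the data, gave 2 for rIL-4 in microglia, 4 for rIL-4 in macrophages and 1 for the rIL-13 difference between cell types. The cause of these shifts was not tested beyond the smaller number of mice. Refits were counted for 35 single-member differences: those called, at an unadjusted p under 0.05, or called without mice 6 and 9. Of 376 such refits, 324 kept direction and call, 27 lost the call, 25 gained it and none changed direction. These differences were picked by their p, so the kept directions do not extend to the other differences given. No paired analysis was possible within a cell type because treatments used different mice. With 3 mice per group, leaving 1 out leaves 2 against 2 between cell types, and Tgfb1 and Smad7 had the fewest counts by their median over libraries. Size factors within each cell type moved 5 of 60 group levels by more than 1 SD, Nrros in the 3 macrophage groups (to 12619, 12340.5 and 11829.7 normalized counts), Smad2 in rIL-13 macrophages (to 1548) and Smad3 in PBS macrophages (to 982.7). The replicate block changed these calls of members between cell types: Tgfb1 was lost in PBS mice, Tgfb1, Tgfbr1 and Tgfbr2 were gained in rIL-13 mice, and in rIL-4 mice Tgfbr1 and Tgfbr2 were gained and Smad3 was lost. Counts over all genes moved more. In microglia, rIL-4 against PBS gave 345 genes with edgeR, 1215 with DESeq2 and 949 with all 18 libraries, rIL-13 against PBS gave 57, 322 and 172, and rIL-4 against rIL-13 gave 6, 557 and 138. In macrophages the same fits gave 570, 1163 and 257 for rIL-13 and 34, 420 and 70 between the cytokines (209 without the filter on low counts), and rIL-4 gave 1900 with edgeR and 1053 with all 18 libraries. The differences between cell types in response gave 164, 4 and 23 genes with edgeR and 689, 154 and 300 with DESeq2, and the block gave 6 in place of 23. Leaving out mice 6 and 9 moved these counts by over 1.5 times, to 37 (rIL-13, microglia), 0 and 10 (between the cytokines, microglia and macrophages), 900 (rIL-13, macrophages) and 278 (difference in response to rIL-4), and the difference in response between the cytokines, to 12. With 1 mouse left out, the counts over all genes behind the shares in the report ran from 75 to 409, 22 to 56 and 0 to 15 in microglia (rIL-4, rIL-13 and between the cytokines), 1041 to 2261, 199 to 677 and 1 to 60 in macrophages, 4354 to 5213, 1197 to 3606 and 1798 to 2548 between cell types (PBS, rIL-13 and rIL-4), and 18 to 243, 0 to 6 and 2 to 28 for the differences in response.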
